A study of Ictidomys tridecemlineatus with 5 samples.

Results

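Transcripts of 9 proteins that coat and protect the ocular surface were followed in whole eye and in isolated retina of the thirteen-lined ground squirrel, Ictidomys tridecemlineatus. The proteins were the mucins MUC1, MUC4, MUC16, MUC20 and MUC5A (the Swiss-Prot name of mucin-5AC), the corneal aldehyde dehydrogenase AL3A1 (gene ALDH3A1), lysozyme C (LYSC, gene LYZ), lactotransferrin (TRFL, gene LTF) and the polymeric immunoglobulin receptor (PIGR). A transcript was counted as a member when the Swiss-Prot entry name of its best hit, without the species code, was 1 of these 9 names. This gave 95 of the 61797 transcripts with a hit in the eye table and 9 of 62889 in the retina table. All 9 proteins were found in eye, of 15287 names there, and 4 were found in retina, of 14600.

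The surface of cornea and conjunctiva is covered by a mucin coat and a tear film. MUC1, MUC4, MUC16 and MUC20 are membrane-anchored mucins of epithelial cells, and MUC5AC is the large gel-forming mucin secreted by goblet cells of the conjunctiva. ALDH3A1 is an abundant soluble enzyme of the corneal epithelium that detoxifies aldehydes made by light and peroxidation. Lysozyme cleaves bacterial cell walls, lactotransferrin binds iron and is made by glands and neutrophils, and PIGR carries polymeric IgA across epithelia into secretions. The neural retina holds no such surface epithelium.

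All animals were wild type, and the labels give neither age nor treatment. RNA of 4 animals was pooled for a library, and there were 2 libraries of eye and 3 of retina. Each deposited table gives a single value per transcript for its tissue. There is therefore no spread between replicates, no test was made, and every interval covers counting error only. In such bulk samples fewer cells of a type and less RNA per cell cannot be told apart.

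Values were taken as RPKM, reads per kilobase of transcript scaled to the depth of the table. The scaling total was inferred from the step size of the values, as none was given. It came to 264219334 reads for eye and 355988270 for retina, so that 1 RPKM on 1000 bases stands for 264 and 356 reads. The tissue labels were checked against markers. All 8 keratin markers of cornea and conjunctiva were in the eye table, with levels summing to 7771 RPKM, and 4 of them were in the retina table, summing to 3.34 RPKM. The 7 retina markers found summed to 3641 RPKM in eye and 6889 in retina. Retinal transcripts were thus present in both tissues, and surface keratins were near 0 in retina.

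The level of a protein is given as the RPKM of its highest transcript, with the level of its best-matching transcript (lowest E-value) beside it where the transcripts disagree. By the highest transcript, the order in eye was AL3A1 at 565 RPKM, TRFL at 236, MUC16 at 37.0, LYSC at 21.9, MUC5A at 12.1, MUC1 at 6.08, MUC20 at 1.98, PIGR at 1.32 and MUC4 at 0.932. The 95% counting intervals of neighbours in this order did not overlap, but they take each read as counted once and the inferred total as right. No spread between libraries was available to set beside them. In retina the order was TRFL at 470 RPKM, MUC5A at 17.6, MUC16 at 1.46 and LYSC at 0.65. AL3A1 ranked 152 among the names of the eye table, above 99.0% of them, whereas MUC4 stood above 8.17%.

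**Figure D1:**
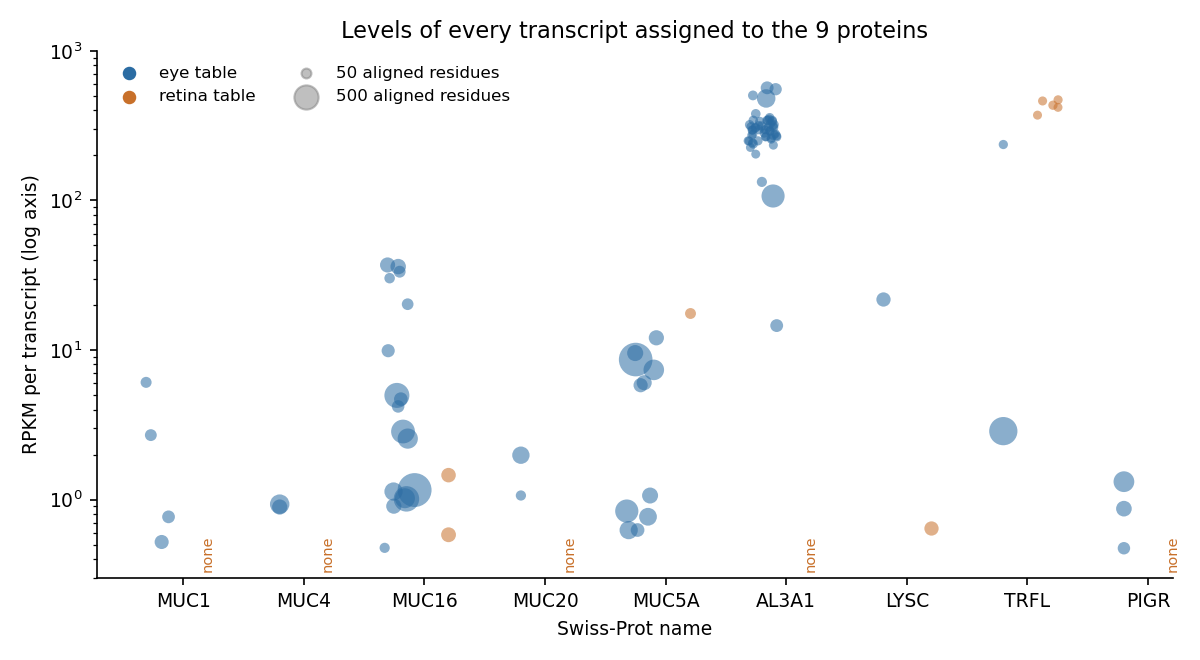
RPKM (log axis) of every transcript assigned to the 9 proteins, in the eye table (blue) and the retina table (orange), with the point size growing with the number of aligned residues. The 53 AL3A1 transcripts fill the top of the eye points, the largest points of MUC16 and TRFL lie low in their columns, and 5 proteins have no retina point.

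Among the membrane-anchored mucins MUC16 was the highest by its highest transcript, and it had the most transcripts. By best match MUC20 was above it (1.98 against 1.16 RPKM), on an alignment at 46% positive (identical or similar amino acids). With hits of at least 60% positive, a limit chosen after seeing the data, MUC20 was at 1.07 RPKM and below it. MUC16 had 17 transcripts in eye, more than 99.0% of names. Their levels ran from 0.476 to 37.0 RPKM with a median of 4.20. The 5 transcripts at 10 RPKM or more, from 20.2 to 37.0 RPKM, were short, at 194 to 477 bases, with alignments of 62 to 181 residues to human MUC16. Alignment lengths, given throughout as residues, exceed what the bases can encode for some transcripts. They are therefore not counts of matched residues. The 7 transcripts of 800 bases or more lay between 1.01 and 4.97 RPKM. The longest of these, 2856 bases with an alignment length of 1019 at 63% positive, was at 1.16 RPKM. MUC16 levels thus differed 31.9-fold between its highest and its best-matching transcript, against a median ratio of 1 over all names in eye.

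Retina held 2 MUC16 transcripts, at 1.46 RPKM on 401 bases and 0.582 RPKM on 637 bases, which came to 340 reads in all against 21944 in eye. Both retina values lay far below the 5 highest eye fragments, but 6 of the 17 eye transcripts were below the higher of them. By the highest transcript the plain ratio of MUC16 RPKM was 25.4-fold toward eye. The log2(RPKM + 1) difference, which the added 1 makes smaller than that ratio, was 3.95 (95% counting interval 3.83 to 4.07). By the best-matching transcripts, which are 2856 bases in eye and 637 in retina, the levels were 1.16 and 0.582 RPKM. Their log2(RPKM + 1) difference was 0.45. The direction was the same by both measures, and the size was not.

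MUC1 was found in eye only, under 4 transcripts that do not all belong to the mammalian mucin. The highest, at 6.08 RPKM on 256 bases, matched MUC1_YEAST, which is the flocculation protein FLO11 of yeast and shares only the name. The next, at 2.70 RPKM on 296 bases, matched 90 residues of human MUC1 at 47% positive with an E-value of 7.96e-06, close to the limit of the table. The better matches, both to gibbon MUC1, were at 0.767 RPKM (607 bases, 110 residues, 74% positive) and 0.521 RPKM (436 bases, 143 residues, 65% positive). The eye level of MUC1 was therefore 6.08 RPKM by the rule, 2.70 among mammalian hits and 0.767 by the best match.

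MUC4 and MUC20, whose genes neighbour and overlap each other in the RefSeq annotation of assembly mIctTri1.hap1, were both low and in eye only. MUC4, which carries EGF-like domains next to its membrane anchor, had 2 transcripts, at 0.932 RPKM (1376 bases, 309 residues at 75% positive) and 0.892 RPKM (522 bases, 173 residues at 43%). MUC20 had 2 transcripts as well, at 1.98 RPKM (1269 bases, 238 residues at 46% positive) and 1.07 RPKM (1002 bases, 57 residues at 78%). The MUC4 intervals of 0.836 to 1.04 and 0.741 to 1.06 RPKM overlapped, so its 2 pieces were at levels that counting could not separate. The 2 MUC20 pieces differed beyond counting, with intervals of 1.83 to 2.14 and 0.944 to 1.20 RPKM. Because the genes overlap and no strand is given for the counting, reads from the overlap could belong to either. Whether any of these pieces lies in the overlap was not tested.

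The gel-forming mucin MUC5A was spread over 11 transcripts in eye and 1 in retina. The eye transcripts fell into 2 ranges, 6 between 5.82 and 12.1 RPKM and 5 between 0.625 and 1.06 RPKM. The upper range included the longest match, 8.63 RPKM on 3354 bases with 1002 residues at 70% positive, and 3 transcripts that matched at only 37% to 45% positive, among them the highest. The other 2 of the upper range matched at 71% and 72% positive over 170 and 146 residues. The lower range matched at 61% to 87% positive over 133 to 456 residues, so match quality overlapped between the ranges. In RefSeq the gene lies between Muc2 and Muc5b, which encode related gel-forming mucins, and MUC5B was found under that name in neither table. Whether both ranges come from 1 gene was not tested, and the MUC5A values are uncertain for that reason.

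The single retina transcript of MUC5A was at 17.6 RPKM (95% counting interval 16.8 to 18.5), on 271 bases with 70 aligned residues at 55% positive. By the highest transcript MUC5A was thus lower in eye, at 12.1 RPKM (11.5 to 12.6), with a log2 difference of -0.51 (-0.60 to -0.42). Summed over transcripts, eye stood at 53.4 RPKM against the same 17.6, and the difference was 1.55 in the other direction. The alignment lengths totalled 3343 in eye and 70 in retina. With hits of at least 60% positive residues, a limit chosen after seeing the data, the retina transcript dropped out and MUC5A was left in eye only, at 8.63 RPKM.

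Weak alignments occurred among the mucin transcripts. Of the 36 eye transcripts of the 5 mucins, 10 aligned at under 60% positive residues (27.8%), with a median of 65%. None of the 59 eye transcripts of AL3A1, LYSC, TRFL and PIGR did, and their median was 95%. Over all eye transcripts with a hit, 2.76% were under 60%, and the median was 94%. Length differed as well: 46 of those 59 were under 200 bases, where an alignment is short, against 3 of the 36 mucin transcripts. Among transcripts of 200 bases or more, 10 of 33 for the mucins, 0 of 13 for the other members and 4.30% of all eye transcripts were under 60%, and 13 are too few to set the other members apart from all.

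AL3A1 stood highest of the 9 in eye, and no retina transcript had it as its best hit. Its 53 eye transcripts ran from 14.6 to 565 RPKM with a median of 296. The longest, 1558 bases with 453 residues at 96% positive, was at 107 RPKM (95% counting interval 106 to 108). A second long piece, 827 bases with 275 residues at 94% positive, was at 480 RPKM, and the highest, 342 bases with 113 residues at 97% positive, was at 565 RPKM (560 to 570). The 539-base piece was the exception at 14.6 RPKM. AL3A1 stood above 96.4% of eye names even by its best match, with a 5.29-fold range between best match and highest.

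The other AL3A1 transcripts formed a dense group of short pieces. Of the 53, 45 were under 200 bases, and 44 lay between 103 and 135 bases at 204 to 379 RPKM. Their level, with a median of 296 RPKM, stood at only percentile 4.73 among all eye transcripts of 100 to under 140 bases, whose median was 1160 RPKM. Transcripts of 1000 bases or more had a median of 9.52 RPKM in eye. Short pieces were thus high throughout the table. Of the 3 AL3A1 pieces of 500 bases or more, 2 stood out from others of their length: 107 RPKM on 1558 bases exceeded the 95th percentile of 66.9 RPKM in that class, and 480 RPKM on 827 bases exceeded that of 169 RPKM among transcripts of 500 to under 1000 bases. The 539-base piece, at 14.6 RPKM, was below the 75th percentile of that class, 32.7 RPKM. Summed over transcripts AL3A1 came to 15857 RPKM. At the inferred scaling, the 25268 eye pieces of 100 to under 140 bases would together hold more reads than the total of 264219334. The same held in retina. Whether reads were counted on more than 1 piece, or the inferred total or the reading as RPKM is wrong, was not tested. The AL3A1 sum, the levels of short pieces and the read counts given here are therefore uncertain.

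**Figure D2:**
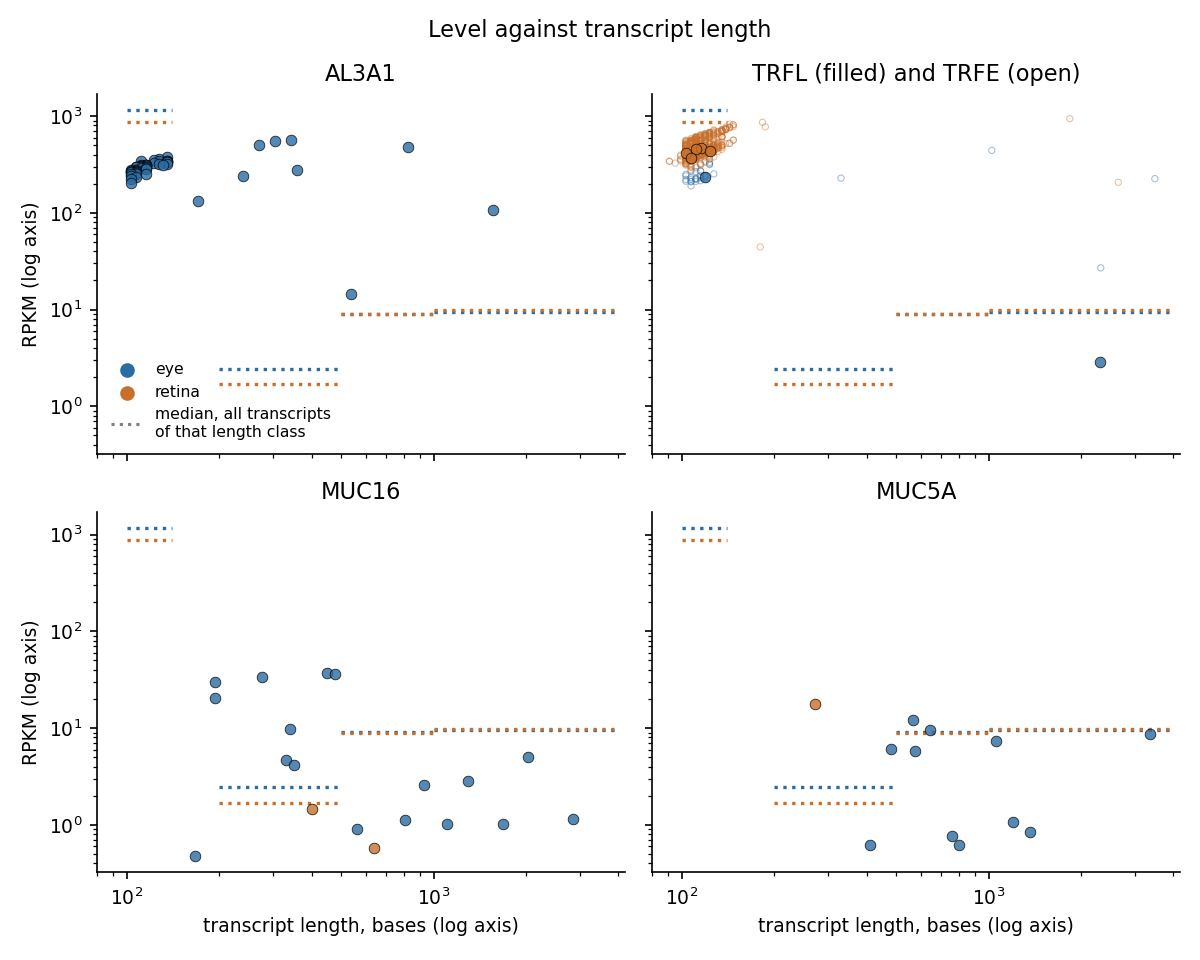
RPKM against transcript length (both log axes) for AL3A1, TRFL with transferrin TRFE as open circles, MUC16 and MUC5A, in eye (blue) and retina (orange); dotted lines are medians over all transcripts of a length class with a hit. Short AL3A1 and TRFL pieces lie below the median of their length class while the long AL3A1 pieces lie above theirs, and the retina TRFL pieces lie among the TRFE pieces.

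Lysozyme C gave the plainest difference between the tissues. It had 1 transcript per tissue, and both matched 148 residues of lysozyme C from Allen's swamp monkey, at 89% positive in eye and 88% in retina. The eye transcript of 2524 bases was at 21.9 RPKM (21.5 to 22.3; 14605 reads) and the retina transcript of 1020 bases at 0.65 RPKM (0.57 to 0.738; 236 reads). By the plain ratio of RPKM eye was 33.7-fold higher. The log2(RPKM + 1) difference, which the added 1 makes smaller than that ratio, was 3.79 (3.72 to 3.87). With 1 transcript per tissue, the choice of highest, best match, sum or weighted mean could not alter it. Lysozyme is made by macrophages as well as by glands and epithelia, and 8 of 10 macrophage markers were found in each tissue, summing to 84.2 RPKM in eye and 21.6 in retina. Each of the 7 found in both was higher in eye (at least 2-fold for 6, beside 11.8% of all proteins compared), and their median difference was 2.06. The receptor CSF1R had an entry only in retina, of 5.74 RPKM, and MRC1 only in eye, of 1.23 RPKM. Their part in the lysozyme difference was not tested.

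Lactotransferrin pointed the other way, but only through fragments of at most 123 bases. In eye a transcript of 2305 bases matched 696 residues at 87% positive and was at 2.87 RPKM (2.74 to 3.01), while a 119-base piece was at 236 RPKM (231 to 242). Retina had no long transcript. Its 5 pieces of 103 to 123 bases were at 371, 418, 432, 462 and 470 RPKM and matched 34 to 40 residues at 91% to 94% positive. By the highest piece TRFL was lower in eye, with a log2 difference of -0.99 (-1.03 to -0.95), just inside the 2-fold mark. Among transcripts of 200 bases or more it was in eye only, at 2.87 RPKM.

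Serum transferrin, TRFE, is a close relative of lactotransferrin. Its highest transcripts were at 442 RPKM in eye (1024 bases) and 942 RPKM in retina (1839 bases), and its best matches at 27.0 and 942 RPKM. It had 32 transcripts in eye and 495 in retina, of which 28 and 471 were pieces of 100 to under 140 bases. These ran from 190 to 333 RPKM in eye and from 278 to 770 RPKM in retina, with medians of 239 and 464 RPKM. The eye TRFL piece at 236 RPKM and all 5 retina TRFL pieces fell inside those ranges. Short pieces of the 2 proteins can share sequence and reads, so the values of the TRFL pieces are uncertain. The transcript of 2305 bases is the only TRFL transcript of 200 bases or more in either table.

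PIGR was low and in eye only. Its 3 transcripts were at 1.32 RPKM (2163 bases, 357 residues at 72% positive), 0.870 RPKM (557 bases, 186 residues at 72%) and 0.473 RPKM (328 bases, 103 residues at 85%). The longest was the highest, so that highest and best match were the same transcript. These 3 pieces held 922 reads in all. The IgA heavy chain under the name IGHA had 6.48 RPKM in eye against 2.20 in retina, and the joining chain IGJ, which links IgA into the polymers PIGR carries, was at 5.78 and 4.65.

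Between the tissues, 4 of the 9 proteins could be compared, and 5 were in the eye table only. MUC16 and LYSC passed the 2-fold mark toward eye, as did 11.8% of all 13383 proteins compared. None of the 4 passed it toward retina, as 3.6% of all did. Of the 4, 2 were higher in eye and 2 in retina, so their median difference of 1.64 lies between the pairs and describes neither. The median over all proteins was -0.0035. MUC1, MUC4, MUC20, AL3A1 and PIGR made 5 of 9 in the eye table only, beside 8.75% of all eye names and 5.42% of those at 1 RPKM or more. Among eye names under 1 RPKM, as MUC4 was, 42.9% had no retina entry. At 100 RPKM or more in eye, as AL3A1 was, 6.85% of 745 names were without a retina entry. A name without an entry has no assembled transcript with that best hit, which is not a measured 0. These counts depended on how the level was taken. With transcripts summed per protein, 3 of the 4 passed the mark toward eye (16.8% of all proteins) and 1 toward retina (19.3%). With best-matching transcripts 1 passed toward eye (11.8%) and 1 toward retina (3.12%), and with length-weighted means 2 (11.6%) and 2 (2.05%). The best match past the mark toward retina was TRFL, on 2305 bases in eye and 123 in retina. Sums rescaled to an equal total gave 2 toward eye (9.01%) and 1 toward retina (35.6%). The highest transcript rescaled in that way gave 2 (8.51%) and 1 (7.86%), with 1138 of all proteins past the mark toward eye and 1051 toward retina, against 1577 and 482 as the authors scaled. LYSC was past it toward eye by each of these measures.

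**Figure D3:**
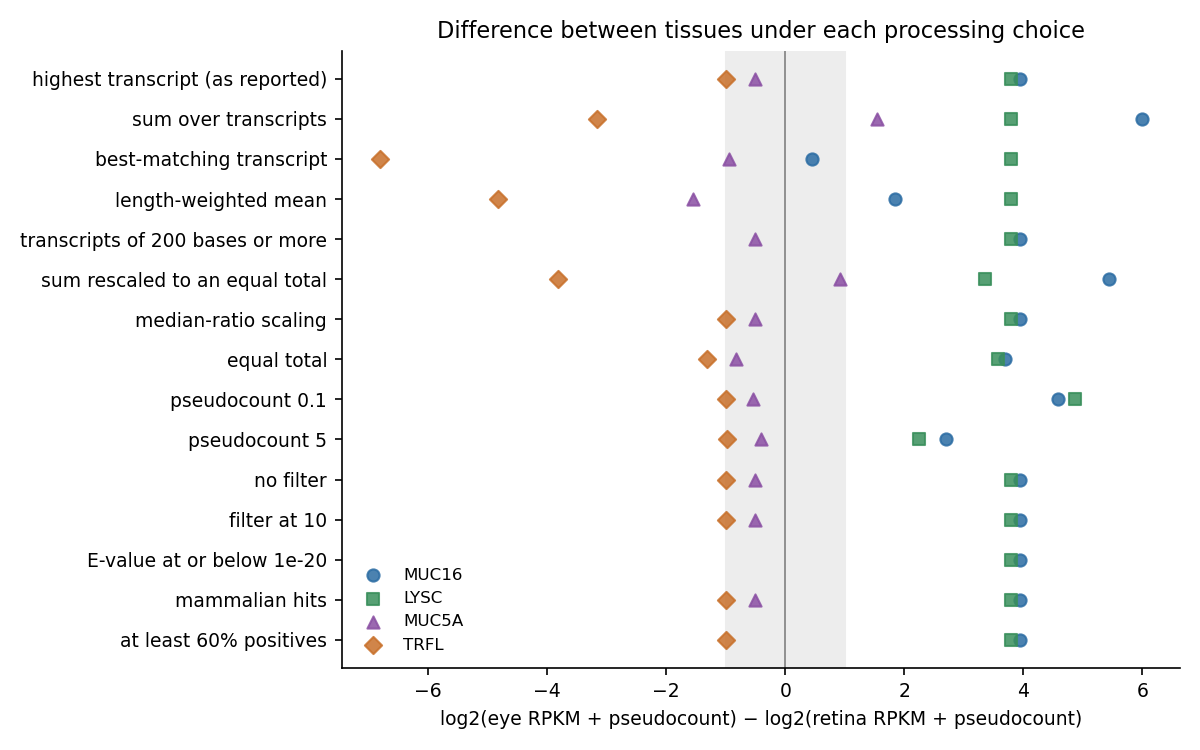
Difference on the log2 scale between eye and retina (x axis) for the 4 proteins in both tables, under the reported measure and each alternative (y axis), with the range inside 2-fold in grey. LYSC and MUC16 stay right of 0 throughout, TRFL stays left of 0 wherever it has a value, and MUC5A changes side with summed transcripts.

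Related genes, from lists, help to place the 9. Beside the counts past 2-fold in each list stand the shares over all 13383 proteins compared, 11.8% toward eye and 3.6% toward retina. Of 17 other mucin names, 5 were in both tables, 3 in eye only, 1 in retina only and 8 in neither; of the 5, 2 passed 2-fold toward eye and 2 toward retina, and the median was -0.34. MUC24 (CD164, a sialomucin found on many cell types) had 26.9 RPKM in eye against 8.25 in retina, and MUCEN (endomucin, of endothelium) at 4.95 and 0.927. The epithelial mucin MUC21 was in eye only, at 9.74 RPKM on 1630 bases, above every MUC1, MUC4 and MUC20 transcript. MUC2 had 9.66 RPKM in eye against 197 in retina, but its alignments were 32% and 40% positive, the latter on 295 bases. MUC19 was at 0.397 and 2.90 RPKM.

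Of 21 names for mucin synthesis and goblet cells, 15 were in the eye table and 7 in the retina table. AGR2, a disulfide isomerase needed for mucin folding in goblet cells, was at 10.7 RPKM in eye only. Of the 6 found in both, 1 passed 2-fold toward eye (11.8% of all proteins) and none toward retina (3.6%), and the median was 0.35. With 6 names this count cannot be told from the share over all. The name past the mark was galectin-3, LEG3, which binds membrane mucins at the corneal surface, at 151 and 2.08 RPKM. The core O-glycan enzyme C1GLT and its chaperone C1GLC stood at 4.57 and 5.22 RPKM and at 6.86 and 7.08 RPKM, and GALT7, which adds further sugars to a started glycan, was at 6.12 and 3.94.

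Of 27 tear and innate defence names, 9 were in both tables, 5 in eye only, 1 in retina only and 12 in neither. Of the 8 compared, 5 passed 2-fold toward eye (11.8% of all proteins) and 1 toward retina (3.6%), and the median was 1.07. The siderophore-binding lipocalin NGAL had 89.7 RPKM in eye against 3.92 in retina, and the bactericidal phospholipase PA2GA at 63.7 and 1.94, both above LYSC in eye. Clusterin, CLUS, was at 590 and 556 RPKM by its highest transcripts, of 236 and 143 bases, and at 91.6 and 239 RPKM by its best matches. Of 7 lacrimal gland markers, which include the tear proteins lacritin and PRR4, 4 were in neither table. The tear lipocalin LCN1 was at 0.453 RPKM and PIP at 2.53 RPKM, both in eye only, while the water channel AQP5, also a channel of corneal epithelium, was at 216 and 2.98. The long TRFL transcript, at 2.87 RPKM, was near PIP in level, and LYSC was above both. The part of lacrimal gland in the values of LYSC and TRFL was not tested.

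Of 11 neutrophil markers, which bear on lactotransferrin and lysozyme, 6 were found in eye and 4 in retina, summing to 174 and 7.34 RPKM. The defining granule enzymes under the names PERM, ELNE, CATG and PRTN3 were in neither table, and NGAL, S10A8 (49.6 RPKM) and S10A9 (30.2 RPKM), which epithelia also make, held most of the eye sum. The eosinophil peroxidase PERE had 1.63 RPKM in eye against 2.87 in retina, and CAMP stood at 1.94 and 0.346. Of 7 plasma cell markers 5 were found in eye and 3 in retina, summing to 132 and 28.5 RPKM. SDC1, which is also a proteoglycan of epithelia, was at 85.1 and 0.526 RPKM and held most of the eye sum. The part of either cell type in the values of TRFL, LYSC and PIGR was not tested.

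Among 21 corneal epithelial enzymes and factors, all were in the eye table and 14 in the retina table. Of these 14, 9 passed 2-fold toward eye (11.8% of all proteins) and none toward retina (3.6%), and the median was 2.11. Among the 9 was APOD, at 612 against 18.9 RPKM through an eye piece of 181 bases. By best match it was at 25.3 and 18.9 RPKM. AL1A1, the aldehyde dehydrogenase that acts beside ALDH3A1 in cornea, had 174 RPKM in eye against 10.6 in retina, and TKT, a transketolase abundant in cornea, at 212 and 85.8. The epithelial factor ELF3 was at 29.4 and 0.942 RPKM. PAX6, a factor of both cornea and retina, was at 136 and 162. AL3A1 was above both enzymes in eye by its highest transcript (565 RPKM) and below both by its best match (107 RPKM), and unlike them it had no retina entry.

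**Figure D4:**
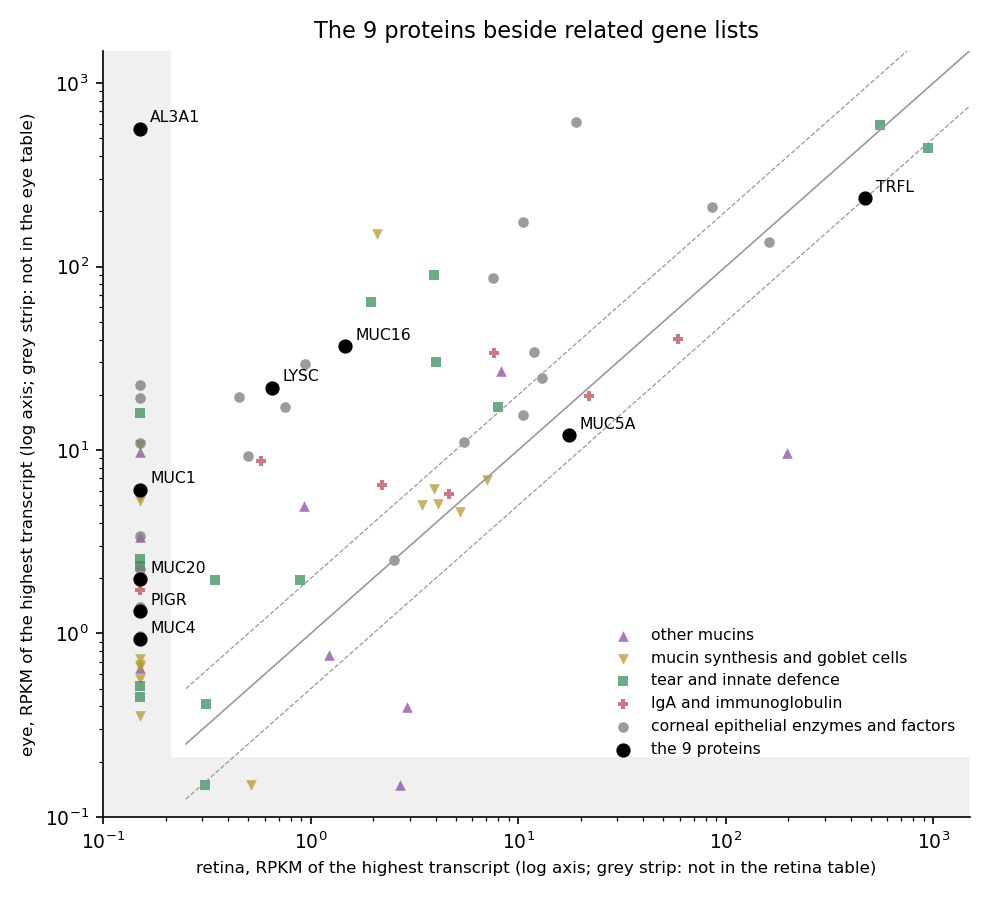
RPKM of the highest transcript in eye (y) against retina (x), both log axes, for the 9 proteins (black, named) and 5 related gene lists; dashed lines mark 2-fold and grey strips hold names absent from that table. MUC16 and LYSC lie above the 2-fold line, TRFL and MUC5A between the lines, and the other 5 proteins in the left strip.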

How the data were processed

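RNA of 2 eye and 3 retina libraries was summarised by the authors in 1 table per tissue. The deposited expression values were taken for RPKM. Value times length was a whole multiple of 1 constant within 0.01 reads for 100% of transcripts, which other scalings of reads over length would also give. The deposited hit tables give, per the file headers, an E-value (a p-value-like measure, at most 1e-05), a percent of positive residues and a bit score. The submitters' processing notes name Bowtie; assembler, counting mode and build: not given in the sources used here. Tables were joined on transcript ID in Python 3.11.15 with pandas 2.3.3. Differences are log2(RPKM + 1), eye minus retina, for shared names reaching 1 RPKM in eye or retina, which understates differences of low genes; the tissues were normalized separately. Intervals are 95% Poisson intervals of reads recovered at the inferred total, each taken as counted once. Functions were tested on Poisson counts simulated from the retina transcripts for both tissues, with a pseudocount below 1. That run checks the code and cannot speak to separate assemblies or shared reads. Members and lists were chosen with earlier results of these data known. All 9 members are named, and of each list up to 4 names of highest mean and up to 2 of largest difference each way; IGHA, CSF1R, MRC1 and the granule enzymes were added afterwards. RefSeq symbols were found for 6 of 9 members. The alternatives were other measures of level, scalings, pseudocounts, filters and hit limits.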

Additional observations from a re-analysis of the deposited data

How the results depend on the processing

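The tables have 1 value per tissue. No paired analysis was possible because the columns carry no library, although labels give both tissues the numbers 3 and 5; leaving out a replicate was not possible for the same reason. Of 80 recomputed counts and differences, 52 were classed as kept, 26 moved and 2 changed sign. A difference was kept inside its counting interval, and a count also when it changed little. With sums, 3 members toward eye against 2 were classed as kept. Filters cannot change the difference of a member. With 1 transcript per tissue, neither the measure of level nor a hit limit can change that of LYSC. The 52 are therefore no measure of stability. The measure of level moved MUC16, MUC5A and TRFL but not LYSC, which moved only with rescaling to an equal total and the pseudocounts. With sums MUC16 differed by 5.99, MUC5A by 1.55 (reversed) and TRFL by -3.17, and 1 member was at least 2-fold higher in retina. With best matches MUC16 differed by 0.45, MUC5A by -0.95 and TRFL by -6.81, with 1 member 2-fold higher in eye and 1 in retina. With length-weighted means the 3 were at 1.85, -1.56 and -4.82, and 2 members were higher in retina. With sums rescaled to an equal total they were at 5.44, 0.92 (reversed) and -3.82, LYSC was at 3.35, and 1 member was higher in retina. The highest transcript at an equal total gave 3.69, -0.82 and -1.32, LYSC 3.57, and 1 member higher in retina. The median of all proteins moved to -0.64 and -0.29 with these 2 scalings. Pseudocount 0.1 gave 4.57 for MUC16 and 4.87 for LYSC, and pseudocount 5 gave 2.70, 2.25 and, for MUC5A, -0.41. Other causes of these shifts than the changed construction were not tested. With transcripts of 200 bases or more TRFL had no difference, with at least 60% positives MUC5A had none, and with E-values at or below 1e-20 neither had. Over all proteins, 482 were at least 2-fold higher in retina, but 2637 with sums, 4879 with rescaled sums, 1051 at an equal total, 272 with weighted means and 265 with pseudocount 5; 1577 of 13383 were higher in eye, but 815 with pseudocount 5 and 921 of 7190 with the filter at 10 RPKM, and 2296 of 13696 with sums and 2002 with pseudocount 0.1. The fewest reads behind a member transcript were 21, on a MUC16 piece of 167 bases; for the 5 members without a retina entry the limit set by depth and assembly was not tested.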

Other observations

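Of 12 immunoglobulin and related names, 6 were in both tables and 2 in eye only. Among the 6, 3 passed 2-fold toward eye (11.8% of all proteins) and none toward retina (3.6%). The neonatal Fc receptor FCGRN, which carries IgG across cells, had 33.8 RPKM in eye against 7.63 in retina, and the IgM heavy chain IGHM at 8.69 and 0.574. The IgG heavy chain IGHG1 was higher in retina, at 59.03 against 40.2 RPKM, and IGLL5, a light-chain-like name, was at 21.9 against 19.8. With best-matching transcripts IGHG1 had 2.85 RPKM in eye against 47.4 in retina, and IGLL5 had 2.55 against 19.6. Immunoglobulin chains have close relatives, and their names are uncertain.

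A short piece also set the level of apolipoprotein D, APOD, a lipid carrier found in tears. It was at 612 RPKM in eye on 181 bases and at 18.9 RPKM in retina on 960 bases. Its best-matching eye transcript was at 25.3 RPKM.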
